A study of Mus musculus with 3 samples.

Results

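Iron and heme handling genes are described here across the immune cells of a mouse melanoma in hosts of 3 ages. The set holds 8 of the 55401 genes in the count matrices, taken by symbol: Hmox1, Blvrb, Fth1, Ftl1, Slc40a1, Tfrc, Slc11a1 and Cd68. The tumours were grafts of YUMM1.7, a mouse melanoma cell line, of which 500000 cells were injected under the skin of hosts aged 4, 12 or 20 months. Tumours of 7 mice per age were taken 18 days later. Live cells bearing CD45.2, a form of the surface protein CD45 carried by blood-derived cells, were sorted and made into 1 PIP-seq library per age, a droplet method that reads the 3′ ends of transcripts. The labels name no strain, sex or treatment of the hosts and do not say how cells of the 7 mice were combined. With 1 library per age, age and library cannot be told apart. No difference between ages has a replicate check or a test, and all intervals cover counting error only.

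Iron and heme pass through macrophages along a known route. Heme from engulfed red cells or dying cells is opened by heme oxygenase 1 (Hmox1) into iron, carbon monoxide and biliverdin, and biliverdin reductase B (Blvrb) reduces flavins and a form of biliverdin. Iron is stored in ferritin, a shell of heavy (Fth1) and light (Ftl1) chains, or leaves the cell through the exporter ferroportin (Slc40a1). Transferrin receptor 1 (Tfrc) brings in iron bound to transferrin and is high in dividing cells, Slc11a1 (Nramp1) moves metal ions across the phagosome membrane, and Cd68 is a glycoprotein of lysosomes used as a macrophage marker.

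Ferritin, ferroportin and the transferrin receptor share a short RNA hairpin, the iron-responsive element, which iron regulatory proteins bind when iron is low. Binding in a 5′ untranslated region blocks translation, and binding in the 3′ region of Tfrc protects the transcript, so RNA counts can record the latter and not the former. The hairpins are shown because they mark the members whose RNA level is only part of the control. GENCODE M21 coding transcripts were searched on the transcript strand for CNNNNNCAGTGN, where the last N was not G and the 5 bases on either side of the loop could pair, G with T included. The matches in the members are printed 5′ to 3′ as DNA letters, with the 6-base loop in capitals.
Fth1, 5′ UTR: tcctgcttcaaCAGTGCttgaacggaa
Ftl1, 5′ UTR: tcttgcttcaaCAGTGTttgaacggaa
Slc40a1, 5′ UTR: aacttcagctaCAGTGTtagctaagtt
Tfrc, 3′ UTR, site a: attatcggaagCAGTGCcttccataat
Tfrc, 3′ UTR, site b: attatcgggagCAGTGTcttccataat
Tfrc, 3′ UTR, site c: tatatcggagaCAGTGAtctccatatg
Tfrc, 3′ UTR, site d: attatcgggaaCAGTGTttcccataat
On GRCm38 they lie at chr19:9982733-9982759 (Fth1, plus strand), chr7:45459780-45459806 (Ftl1, minus strand) and chr1:45925466-45925492 (Slc40a1, minus strand). The Tfrc sites lie on the plus strand at chr16:32631220-32631246, chr16:32631599-32631625, chr16:32631664-32631690 and chr16:32631711-32631737. Such letters occurred in a 5′ UTR of 20 of 20160 genes (0.0992%) and in a 3′ UTR of 97 of 20858 genes (0.465%). A match describes the letters and is no measured site.

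The libraries held 14393, 14653 and 14684 cell barcodes and 110371225, 127850782 and 119873564 counts at 4, 12 and 20 months, and each pair of libraries shared between 2 and 4 barcodes. After filtering, 13523, 13772 and 13802 cells fell into 24 clusters, named here from marker genes. The classes used are macrophage-like (2887, 3058 and 3803 cells at 4, 12 and 20 months), monocyte-like (2355, 1135 and 1297), dendritic cell-like (771, 669 and 735), T-like (3636, 4111 and 3447) and NK-like (2334, 2112 and 1625). Unnamed clusters held 10.7%, 18.9% and 20.3% of cells and stay outside these classes. The labels call the cell type melanoma, while the sample titles name Cd45 cells of a mouse melanoma. The melanocyte gene Pmel stood at or below 1.20 counts per 1000000 counts (CPM) in nearly all macrophage-like cells. These were named from macrophage markers, so this level cannot bear on the label. Levels below are CPM of summed counts and are given in the order 4, 12 and 20 months. They are not per length, so they are compared between classes and not between genes.

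Of the 8 genes, 7 were higher in macrophage-like than in T-like cells, with no overlap between the values of the 3 libraries, and Tfrc was lower. The same 7 were higher in monocyte-like than in T-like cells, but for Slc40a1 this rests on 5, 2 and 2 counts against 3, 5 and 3, whose intervals overlap in each library. Among genes at 50 CPM or more, 34.5% were higher in macrophage-like than in T-like cells by this rule and 45.0% were lower, and for monocyte-like cells 39.9% and 46.5%. Against dendritic cell-like cells 7 members were higher in macrophage-like cells (background 29.1%) and Tfrc was lower (36.2%). For Slc40a1 this rests on 1, 0 and 0 dendritic cell-like counts, and its level is far below the 50 CPM of these backgrounds. Its intervals in macrophage-like and monocyte-like cells also overlapped in each library. By the ranges of the 3 libraries, macrophage-like and monocyte-like cells divided the set. Slc40a1, Fth1, Ftl1 and Blvrb were higher in the former (background 35.4%) and Slc11a1 in the latter (36.3%), while Hmox1, Tfrc and Cd68 overlapped. This split is weak for most macrophage-like cells: 2 sub-clusters of 4821 and 3030 of the 9748 cells scored 0.618 and 0.638 for macrophage markers against 0.521 and 0.544 for monocyte markers, with no macrophage marker among their 10 leading genes. The third sub-cluster, led by Pf4, scored 0.958 against 0.281. With its cells alone, Slc11a1 overlapped monocyte-like cells and Cd68 lay above them, while Slc40a1, Fth1, Ftl1 and Blvrb stayed above. Dendritic cell-like cells exceeded T-like cells in 6 members (background 37.7% higher and 41.5% lower). For Slc11a1, 1 of these 6, the counting intervals of the 2 classes overlapped in each library. T-like and NK-like cells overlapped in 5 members, with 2 higher and 1 lower in T-like cells (30.5% and 21.1%). For Hmox1, 1 of the 2 higher, the counting intervals again overlapped in each library. Levels in T-like cells are given throughout, since RNA free in the suspension can add counts to cells that do not make a transcript.

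**Figure D1:**
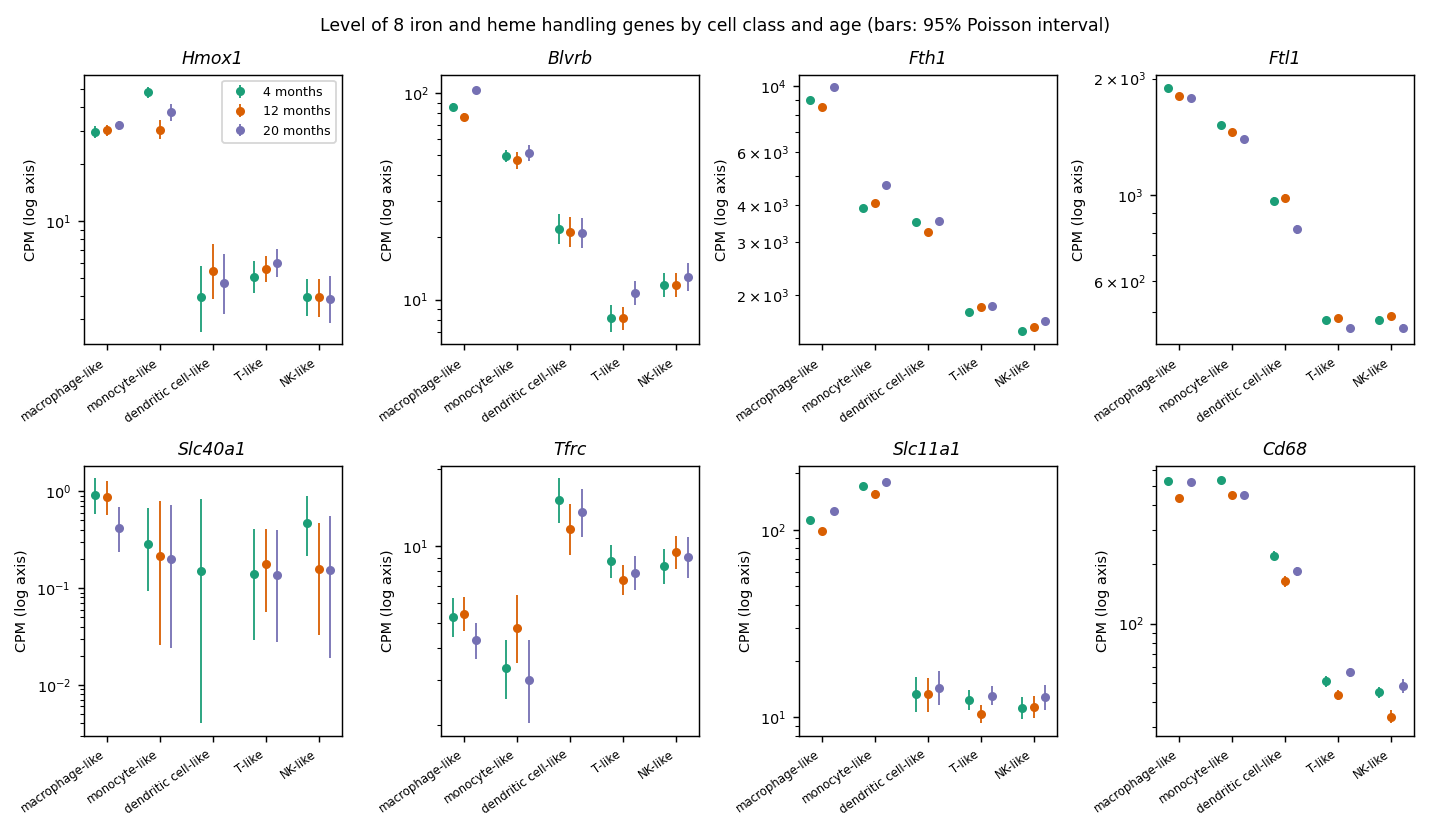
Levels of the 8 genes in CPM (log axis) in 5 cell classes, 1 point per library (4, 12 and 20 months), bars showing the 95% Poisson interval; libraries at 0 are not drawn. Tfrc is highest in dendritic cell-like cells, and the other 7 genes lie higher in macrophage-like and monocyte-like than in T-like cells.

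Hmox1 (ENSMUSG00000005413.8, chr8:75093621-75100589) stood at 29.6, 30.2 and 32.1 CPM in macrophage-like cells. In monocyte-like cells it stood at 48.1, 30.5 and 37.6 CPM. These 2 classes overlapped, and the 3 others lay far below both. T-like cells had 5.06 to 6.01 CPM, dendritic cell-like cells 3.93 to 5.45 and NK-like cells 3.87 to 3.95, and the mean of macrophage-like cells was 5.53-fold above that of T-like cells.

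Few cells held the Hmox1 counts. With each cell thinned to 2000 counts, 4.36%, 4.32% and 5.26% of macrophage-like cells and 4.88%, 3.79% and 5.32% of monocyte-like cells had an Hmox1 count, against 1.10 to 1.27% of T-like cells. Unthinned, the macrophage-like shares were 16.5%, 19.5% and 20.5% and the T-like shares 2.89%, 3.72% and 3.63%, at median depths of 8261, 9093 and 8200 against 5015, 5798 and 5526 counts per cell. The T-like shares serve as the background level, and the macrophage-like and monocyte-like shares lay above them in each library.

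The 1% of macrophage-like cells with the most Hmox1 counts held 29.01% of them over the 3 libraries, and the 1% of monocyte-like cells 45.6%. The same shares were 10.5% and 10.2% for Blvrb, 4.75% and 5.61% for Fth1, and 4.43% and 3.74% for Cd68. Low genes are held by fewer cells in any case, and Hmox1 was the lowest of these 4. By library the Hmox1 share was 32.8%, 30.3% and 25.7% in macrophage-like and 53.2%, 36.3% and 35.1% in monocyte-like cells. In T-like cells, at background level, it was 37.6%, 29.7% and 31.8%, so such a share was not particular to macrophage-like cells. Tfrc, a lower gene, had 26.3%, 34.5% and 30.3% in macrophage-like cells. At 4 months 24 monocyte-like cells held 446 of 838 Hmox1 counts, 91 of them in 1 cell.

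**Figure D2:**
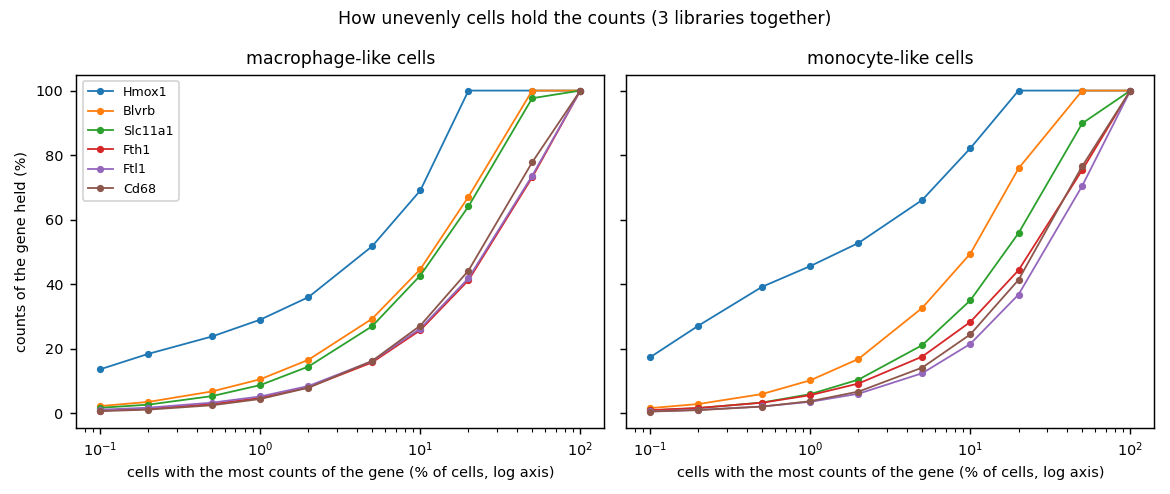
Percent of each gene's counts (y axis) held by the cells with the most counts of that gene (x axis, percent of cells, log axis), in macrophage-like and monocyte-like cells of the 3 libraries together. Of the genes drawn, which leave out the lower genes Slc40a1 and Tfrc, Hmox1 has the highest curve. Its value at 1% of cells is 29.01% and 45.6% of counts, and the curves of Fth1, Ftl1 and Cd68 lie lowest.

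Blvrb (ENSMUSG00000040466.16, chr7:27447978-27466144) stood at 86.0, 76.8 and 103.8 CPM in macrophage-like cells and at 49.6, 47.3 and 51.2 CPM in monocyte-like cells. Dendritic cell-like cells followed at 21.1 to 22.1 CPM, NK-like cells at 11.7 to 12.9 and T-like cells at 8.12 to 10.8. No neighbours in this order overlapped, and the mean of macrophage-like cells was 1.80-fold that of monocyte-like cells.

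Fth1 (ENSMUSG00000024661.7, chr19:9980598-9985098) reached 8978, 8525 and 9908 CPM in macrophage-like cells. It stood at 3917, 4048 and 4663 CPM in monocyte-like cells and at 3521, 3240 and 3533 CPM in dendritic cell-like cells. T-like cells had 1755 to 1833 CPM and NK-like cells 1519 to 1640 CPM. All 5 classes were separated, and the mean of macrophage-like cells was 2.17-fold that of monocyte-like cells.

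Ftl1 (ENSMUSG00000050708.16, chr7:45457944-45459884) stood at 1887, 1798 and 1782 CPM in macrophage-like and at 1517, 1453 and 1398 CPM in monocyte-like cells, a mean ratio of 1.252. Dendritic cell-like cells had 817 to 981 CPM, and T-like and NK-like cells overlapped at 452 to 486 CPM. The value is uncertain, because the copy Ftl1-ps1 (chr13:74399694-74407346) matches Ftl1 in 906 of 910 aligned bases and the authors' counting could split reads between them. It carries the same hairpin letters as Ftl1. Summed, the pair gave 3339, 3191 and 3174 CPM in macrophage-like, 2691, 2552 and 2440 in monocyte-like and 704 to 754 in T-like cells.

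Slc40a1 (ENSMUSG00000025993.10, chr1:45908068-45926523) was barely detected. Macrophage-like cells held 23, 27 and 15 counts (0.912, 0.871 and 0.422 CPM), monocyte-like cells 5, 2 and 2, NK-like cells 9, 3 and 2, T-like cells 3, 5 and 3, and dendritic cell-like cells 1, 0 and 0. Macrophage-like and NK-like ranges overlapped. The whole of the macrophage-like range lay above the monocyte-like one, although the counting intervals of macrophage-like and monocyte-like cells overlapped in each library. Of thinned macrophage-like cells 0.105 to 0.277% had a count.

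Tfrc (ENSMUSG00000022797.16, chr16:32608920-32632794) had another order. Dendritic cell-like cells had 15.1, 11.6 and 13.5 CPM, then came NK-like cells (8.31 to 9.46) and T-like cells (7.38 to 8.72), which overlapped. Macrophage-like (4.28 to 5.42) and monocyte-like cells (3.002 to 4.78) were lowest and overlapped too. Within the dendritic cells a small cluster led by Siglech, Ccr9 and Klk1 (62, 57 and 52 cells), genes known from plasmacytoid dendritic cells, had 96.2, 70.0 and 102.8 CPM on 33, 26 and 30 counts. The cluster led by Cd209a (572, 443 and 580 cells) had 11.5, 10.6 and 10.5 CPM. Dividing NK-like cells, led by histone genes, had 14.9, 12.5 and 15.4 CPM beside 7.85, 8.90 and 8.84 CPM in the largest NK-like cluster.

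Slc11a1 (ENSMUSG00000026177.11, chr1:74375195-74386062) stood at 171.6, 155.6 and 180.3 CPM in monocyte-like cells, above the 113.4, 98.7 and 125.7 CPM of macrophage-like cells in each library. Dendritic cell-like, T-like and NK-like cells lay between 10.4 and 14.4 CPM. Thinned to 2000 counts, 25.4 to 26.9% of monocyte-like, 17.2 to 19.9% of macrophage-like and 2.18 to 2.53% of T-like cells had a count.

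Cd68 (ENSMUSG00000018774.13, chr11:69664213-69666153) did not separate macrophage-like cells, at 530.5, 431.7 and 521.5 CPM, from monocyte-like cells, at 536.4, 450.7 and 451.9 CPM. Dendritic cell-like cells had 163.8 to 221.5 CPM and T-like and NK-like cells 33.8 to 56.6 CPM. Thinned, 54.7 to 62.1% of macrophage-like and 8.22 to 11.3% of T-like cells had a count.

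Macrophage-like and monocyte-like cells made up 5 sub-clusters, formed without the members. The macrophage-like ones were led by Pf4, Cd81 and Ccl8 (375, 514 and 1008 cells), by Il1b, Cxcl2 and Cd14 (905, 1233 and 892) and by Cxcl9, H2-Ab1 and H2-Aa (1607, 1311 and 1903). The monocyte-like ones were led by F13a1, Hp and Fn1 (1174, 615 and 633) and by Tgm2, AA467197 and Slfn4 (1181, 520 and 664). Pf4-led cells had the highest Blvrb, Ftl1 and Cd68, with no overlap with the other sub-clusters, and Cxcl9-led cells the lowest Hmox1 of the macrophage-like group.

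Hmox1 stood at 18.6, 19.1 and 23.0 CPM in Cxcl9-led cells. It stood at 45.2, 42.9 and 37.5 CPM in Pf4-led cells and at 41.1, 34.7 and 42.4 CPM in Il1b-led cells, which overlapped. Blvrb was 126.3, 108.2 and 142.0 CPM in Pf4-led cells, and its highest value in the other 4 sub-clusters was 94.0 CPM. Pf4-led cells also had 2431, 2351 and 2206 CPM of Ftl1 and 633.0, 579.3 and 633.3 CPM of Cd68. Their Slc11a1, at 157.2 to 168.1 CPM, lay within the range of monocyte-like sub-clusters (148.7 to 181.7 CPM), whereas Cxcl9-led cells had 68.1 to 96.2 CPM. They held 9, 19 and 7 of the 23, 27 and 15 Slc40a1 counts of macrophage-like cells.

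Fth1 separated the monocyte-like sub-clusters. F13a1-led cells had 2914, 3302 and 3764 CPM and Tgm2-led cells 4953, 4958 and 5574 CPM, and all macrophage-like sub-clusters lay between 8057 and 10853 CPM. For Ftl1 the monocyte-like sub-clusters overlapped, at 1445 to 1491 and 1350 to 1567 CPM.

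**Figure D3:**
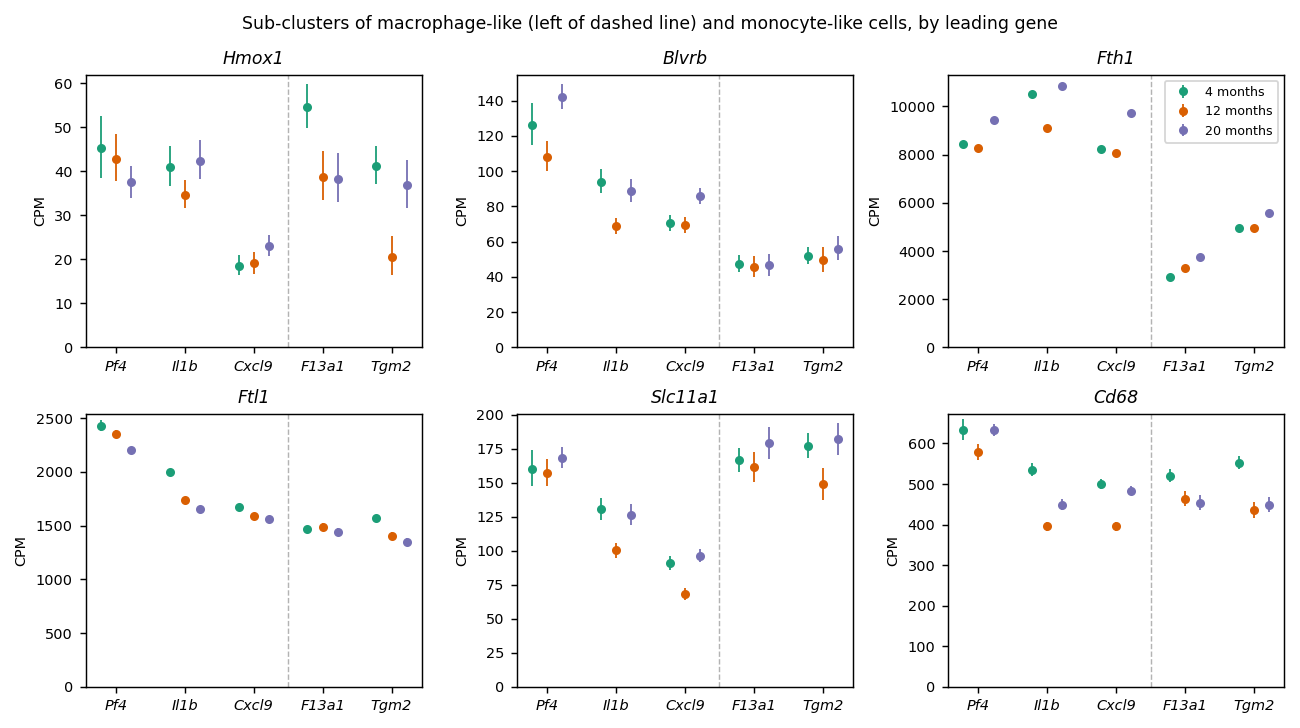
Levels of 6 members in CPM in the 5 sub-clusters of macrophage-like (left of the dashed line) and monocyte-like cells, each named by its first leading gene, 1 point per library, bars showing the 95% Poisson interval. Blvrb, Ftl1 and Cd68 are highest in Pf4-led cells, and Fth1 is lowest in F13a1-led cells.

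At a finer clustering (Leiden resolution 2.0) a group of 48 cells appeared, led by Mmp12, a macrophage elastase, Lpl, a lipase, and Cd36, a scavenger receptor. It was singled out after its values were seen. It held 25, 15 and 8 cells, or 0.866%, 0.491% and 0.210% of macrophage-like cells (95% exact binomial intervals 0.561 to 1.28%, 0.275 to 0.808% and 0.091 to 0.414%), and 47 of the 48 belonged to the Il1b-led sub-cluster. Members of the set took no part in the clustering.

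Members with a mean of 50 CPM or more over the compared cells numbered 6. All were over 1.5-fold higher in the Mmp12-led cells than in the other macrophage-like clusters of that resolution in each library. Of 3043 genes at this level 5.59% were. Hmox1 lay below 50 CPM in the other clusters and reached this mean only through the Mmp12-led cells, so its place in this count was fixed by the filter. Hmox1 stood at 579, 750 and 1204 CPM against 23.3, 25.5 and 29.8 CPM. That is 24.8-fold, 29.4-fold and 40.4-fold, and the 48 cells held 155, 162 and 96 of the 746, 935 and 1142 Hmox1 counts of macrophage-like cells. Blvrb stood at 852, 430 and 652 CPM (10.8-fold, 5.61-fold and 6.25-fold). Fth1 reached 36027, 23287 and 33795 CPM (4.09-fold, 2.72-fold and 3.39-fold) and Ftl1 7874, 6212 and 7502 CPM (4.30-fold, 3.45-fold and 4.19-fold). Slc11a1 was 2.63-fold to 3.34-fold and Cd68 1.67-fold to 1.83-fold higher.

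Slc40a1 and Tfrc lay below that level. Slc40a1 was also over 1.5-fold higher in each library, on few counts. It had 7, 4 and 4 counts in these cells, so they held 15 of its 65 counts in macrophage-like cells. The levels were 26.1, 18.5 and 50.2 CPM against 0.689, 0.779 and 0.330 CPM, with log2 ratios of 5.25 (95% counting interval 3.72 to 6.61), 4.57 (2.57 to 6.13) and 7.25 (5.14 to 9.004). Tfrc had 3, 0 and 0 counts.

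Other known targets of NRF2, a transcription factor of the oxidative stress response that also acts on Hmox1, were in part high in the same cells. Prdx1, which removes peroxides, stood at 17485, 5906 and 8467 CPM against 730, 670 and 726 CPM. Srxn1, which repairs oxidised peroxiredoxins, was 28.5-fold to 32.3-fold higher, the cystine carrier Slc7a11 11.4-fold to 25.5-fold and the thioredoxin reductase Txnrd1 5.36-fold to 10.5-fold. Gclm was 1.14-fold to 1.59-fold higher, and Nqo1 had 10, 7 and 1 counts. Of the 9 other NRF2 targets in the list, Txn1, Gclc and G6pdx are given no level in these cells here, so the genes named are part of the list.

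The Mmp12-led cells had medians of 9527, 9395 and 8478 counts, against 8252, 9091 and 8200 in the other macrophage-like cells. Their median doublet scores were 0.091, 0.051 and 0.047 against 0.039, 0.039 and 0.042. The sum of 10 macrophage markers was 5976, 12206 and 8129 CPM against 10269, 11669 and 14792 CPM, and that of 12 monocyte markers 5487, 5466 and 5582 CPM against 12809, 10294 and 9441 CPM. The sum of 12 T-cell markers was 669, 1231 and 2007 CPM against 841, 1347 and 1156 CPM, with at most 1 marker at 0 in a library. The sum of 4 haemoglobin genes was 67.2, 13.9 and 25.1 CPM against 69.6, 15.1 and 8.79 CPM. The sum of 8 melanocyte markers was 153.1, 83.3 and 250.9 CPM against 28.2, 31.7 and 33.5 CPM. Mitf, which macrophages also express, made up nearly all of it, and 6 of the 8 markers were at 0 in each library. The sum of 5 platelet markers was 0, 138.9 and 12.5 CPM against 0.473 to 0.869 CPM, all of it Ppbp, with the other 4 markers at 0. The part of doublets or other cells' RNA in these levels was not tested.

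**Figure D4:**
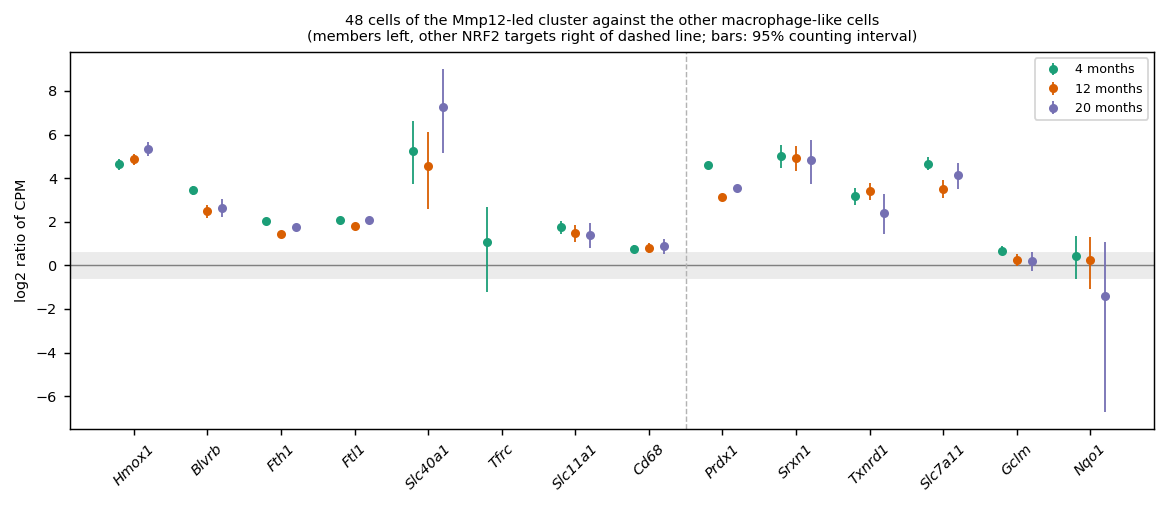
Log2 ratio of CPM between the 48 Mmp12-led cells and the other macrophage-like cells, 1 point per library with 95% counting intervals. Members stand left of the dashed line and 6 of the 9 other NRF2 targets right of it. The grey band marks 1.5-fold. Hmox1 lies at 4.63, 4.88 and 5.34, and Gclm and Nqo1 lie in or near the band except Nqo1 at 20 months, which rests on 1 count.

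Promoters were searched for TGACNNNGC, the core letters of the antioxidant response element that NRF2 binds, on both strands of RefSeq windows (GRCm38.p6) running from 250 bases before to 50 bases after each gene's start. Of all promoters 14.0% held the letters. None of the 6 members with a window did, which bears on these windows alone. Of the other NRF2 targets 5 of 8 did. Among these, Gclm and G6pdx were not over 5-fold higher in the Mmp12-led cells in each library. No match was found for Slc7a11, which was over 5-fold higher in each library. A link between the letters and the levels was not tested. The 3 genes with the letters that were over 5-fold higher in each library are printed along the gene's strand. The match, read as GCNNNGTCA, is in capitals.
Prdx1: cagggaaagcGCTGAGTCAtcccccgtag
Srxn1: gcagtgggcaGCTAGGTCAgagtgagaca
Txnrd1: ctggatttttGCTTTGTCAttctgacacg
They lie at chr4:116685456-116685484, chr2:152105542-152105570 and chr10:82859104-82859132.

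Host age went with small differences in most members. In macrophage-like cells none of the 8 passed 1.5-fold at 12 months against 4 months, and Slc40a1 did at 20 months, where 2.04% and 1.56% of 3082 genes at 50 CPM or more did. In monocyte-like cells Hmox1 passed at 12 months and none at 20 months (background 1.88% and 1.35%). None passed in dendritic cell-like cells (1.82% and 2.52%) or T-like cells (1.42% and 1.93%), and in NK-like cells Slc40a1 passed at both ages on 9, 3 and 2 counts (1.36% and 1.26%). Slc40a1 is far below 50 CPM, and among all genes with counts 24.4% and 20.9% passed in NK-like cells. The 6 members at 10 CPM or more in macrophage-like cells had log2 ratios with medians of -0.12 (12 months) and 0.13 (20 months), beside -0.04 and -0.05 over all genes at 50 CPM or more. Both ages are set against the same 4-month library.

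In monocyte-like cells the log2 ratio of Hmox1 to 4 months was -0.66 at 12 months (95% counting interval -0.86 to -0.46) and -0.35 at 20 months (-0.53 to -0.18). Levels were 41.3, 20.5 and 36.9 CPM in the Tgm2-led and 54.7, 38.7 and 38.3 CPM in the F13a1-led sub-cluster. Without the 1% of cells with the most Hmox1 counts in each library the ratios were -0.21 (-0.47 to 0.05) and 0.12 (-0.12 to 0.35). The difference at 12 months thus came within 1.5-fold, and both intervals spanned 0. The ratio at 12 months was also within 1.5-fold when each library was clustered separately (-0.49) and when library-specific genes were kept in the clustering (-0.35). In macrophage-like cells the ratios were 0.03 (-0.11 to 0.17) and 0.12 (-0.01 to 0.26).

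A small group of monocyte-like cells, seen at the finer clustering and singled out after its values were seen, carried some of the Hmox1 counts. It was led by Ear1, Ace and Cd36, of which Ace and Ear genes are known from nonclassical monocytes, and held 72, 29 and 23 cells. Hmox1 stood there at 174.4, 20.4 and 67.8 CPM on 69, 4 and 10 counts, while Slc11a1 stood at 267.9, 321.4 and 359.4 CPM.

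Haemoglobin transcripts, which are made by red cell precursors, differed with age in the same order in each class. The 4 genes summed to 66.7, 12.4 and 8.41 CPM in monocyte-like, 68.6, 15.01 and 8.75 in macrophage-like and 66.6, 14.4 and 8.28 in T-like cells, with no gene at 0. Hmox1 was likewise highest at 4 months in monocyte-like and NK-like cells, and lowest at 4 months in macrophage-like, T-like and dendritic cell-like cells. Outside monocyte-like cells the intervals of its log2 ratios to 4 months all spanned 0. The part of free red cell RNA in the monocyte-like difference was not tested.

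Slc40a1 in macrophage-like cells had a log2 ratio of -1.11 at 20 months (95% counting interval -2.15 to -0.11), on 23 against 15 counts, and no cell held more than 6. Among all genes with counts, with no filter on level, 21.6% passed 1.5-fold in this comparison. Leaving out the 48 Mmp12-led cells gave -1.05 (-2.30 to 0.15), and Pf4-led cells alone gave -1.95.

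Blvrb in macrophage-like cells had log2 ratios of -0.16 at 12 months (-0.25 to -0.08) and 0.27 at 20 months (0.20 to 0.35). Pf4-led cells, where Blvrb is highest, were 375, 514 and 1008 in number. With sub-cluster shares held as at 4 months the Blvrb ratio at 20 months was 0.14, the lowest of 16 alternatives. The highest was 0.40, without the Mmp12-led cells. At 12 months the alternatives ran from -0.26 to -0.07, and without the Mmp12-led cells the interval spanned 0 (-0.15 to 0.02). The cause of these moves was not tested. Slc11a1 in macrophage-like cells had -0.20 and 0.15.

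Fth1 at 20 months had log2 ratios of 0.14 in macrophage-like (0.14 to 0.15), 0.25 in monocyte-like (0.23 to 0.27), 0.005 in dendritic cell-like, 0.06 in T-like and 0.11 in NK-like cells. The dendritic cell-like ratio was -0.64 when each library was clustered separately. Ftl1 at 20 months had ratios below 0 in all 5 classes, of -0.08, -0.12, -0.24, -0.08 and -0.07 in macrophage-like, monocyte-like, dendritic cell-like, T-like and NK-like cells, though the macrophage-like ratio was 0.01 when each library was clustered separately. The T-like Ftl1 ratio was 0.03 with 5000 counts or more per cell. The 2 ferritin chains thus differed in sign at 20 months in macrophage-like, monocyte-like, T-like and NK-like cells, each by less than 1.5-fold. Fth1 was near 0 in dendritic cell-like cells. Medians over all genes at 50 CPM or more were -0.05, -0.002, -0.02, -0.09 and -0.07 in the 5 classes, in the order given for Ftl1. In T-like and NK-like cells Ftl1 thus lay near the typical gene. Cd68 at 12 months had ratios of -0.30, -0.25, -0.43, -0.22 and -0.41 in the same classes, including those in which its level is near the background.

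**Figure D5:**
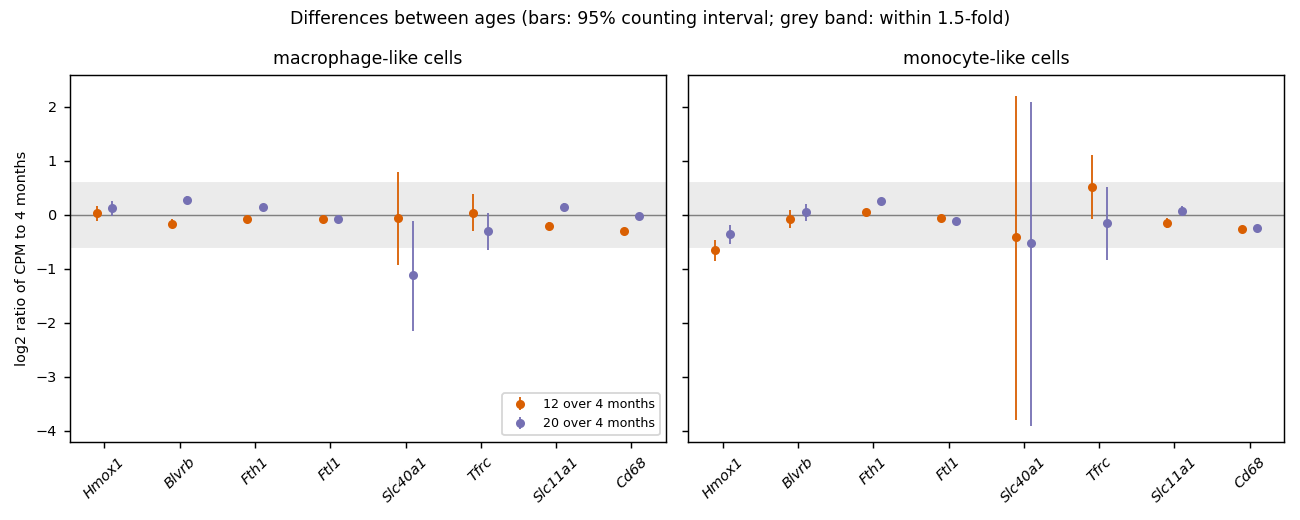
Log2 ratio of CPM at 12 and at 20 months to 4 months for the 8 members in macrophage-like and monocyte-like cells, with 95% counting intervals and 1 library per age; the grey band marks 1.5-fold. Points outside the band are Slc40a1 at 20 months in macrophage-like cells (-1.11) and Hmox1 at 12 months in monocyte-like cells (-0.66).

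The 54 other genes of iron and heme handling were taken in 5 lists. Transferrin (Trf), the iron carrier of plasma, was the single gene at 20 CPM or more to pass 1.5-fold in macrophage-like or monocyte-like cells as a whole. It stood at 54.1, 81.8 and 78.3 CPM in macrophage-like cells, with a log2 ratio of 0.60 at 12 months (0.50 to 0.69). Abundant genes of the lists did not pass: in macrophage-like cells the heme synthesis enzyme Alas1 had 86.4, 74.5 and 70.7 CPM, the second heme oxygenase Hmox2 228.2, 204.6 and 205.9, the iron chaperone Pcbp2 153.9, 158.8 and 174.0, and Nfe2l2, which encodes NRF2, 240.4, 241.7 and 258.9.

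In macrophage-like cells 0 of 9 heme synthesis genes were higher past 1.5-fold at 12 months and 1 lower, with none at 20 months. Of 10 heme uptake and breakdown genes 1 was higher and 1 lower at 12 months and none at 20 months. Of 17 iron uptake, transport and storage genes 3 were higher and 1 lower at 12 months, and 2 higher and 1 lower at 20 months. Of 9 regulators 1 was higher at 12 months, and 1 higher and 1 lower at 20 months, and of 9 other NRF2 targets none passed. Most of these were low genes, and among all genes with counts 24.8% passed in either direction at 12 months and 21.6% at 20 months. The median log2 ratios of these lists over genes at 10 CPM or more ran from -0.08 to 0.05 at 12 months and from -0.09 to 0.18 at 20 months.

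Some list genes were named after their values were seen. Haptoglobin (Hp), which binds free haemoglobin, passed within 2 sub-clusters, at 28.4, 43.9 and 55.8 CPM in Cxcl9-led and 144.0, 228.1 and 239.4 CPM in Tgm2-led cells, but not in monocyte-like cells as a whole (409.9, 496.1 and 490.2 CPM). Lactoferrin (Ltf), which binds iron, stood at 38.7, 14.7 and 10.97 CPM in T-like cells, with log2 ratios of -1.39 and -1.82. It stood at or below 4.27 CPM in the other 4 classes. The 1% of T-like cells with the most Ltf counts held 50.5%, 55.8% and 73.4% of them, so these levels rest on few cells. Cp, a ferroxidase, stood at 5.27, 7.71 and 12.2 CPM in macrophage-like cells, and Spic, a transcription factor of iron-recycling macrophages, at 4.88, 7.33 and 7.37 CPM. Lcn2, which binds siderophores, stood at 2.47, 14.1 and 12.7 CPM in monocyte-like cells. The sum of 8 neutrophil markers there was 150.4, 218.6 and 228.6 CPM with none at 0, and its part in the Lcn2 difference was not tested. Srxn1 stood at 11.5, 7.39 and 8.71 CPM in monocyte-like cells, and alone of the 9 other NRF2 targets it passed 1.5-fold there at 12 months. The median log2 ratio of these targets at 10 CPM or more was -0.05.

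Genes with patterns most like each member were ranked by Pearson's r of log2(CPM + 10) over the 24 clusters, which share libraries and differ in depth, so no p is given. Hmox1 was closest to Tnfsfm13, Msr1 and C3ar1 (r = 0.927, 0.926 and 0.921). Blvrb was closest to the lysosomal genes Hexa and Grn (0.899 and 0.887) and Fth1 to Asah1 and Atp6v0c (0.941 and 0.931). Atp6ap1 came next for both (0.862 and 0.928). Ftl1 was closest to Gm22133 (0.992), a small RNA gene inside Ftl1 on the same strand, to Grik3 (0.976) and to Ftl1-ps1 (0.951). Slc11a1 was closest to Gm5150, Treml4 and Fpr2 (0.982, 0.962 and 0.960), Cd68 to Tifab, Ms4a6c and P2ry6 (0.978, 0.969 and 0.966), and Tfrc to Ctcf, Rpgrip1 and Rtn4rl1 (0.935, 0.921 and 0.893). For Slc40a1 the closest were Mrgpra2b, Sycp2 and Il23a (0.970, 0.967 and 0.967). The highest Slc40a1 level, 15.5 CPM, was in a neutrophil-like cluster of 9, 8 and 2 cells. With so few cells that level rests on few counts, and these r may follow from that cluster alone.

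Among the members, Slc11a1 and Cd68 had the highest r (0.879), then Hmox1 and Cd68 (0.851) and Fth1 and Cd68 (0.849). Tfrc had a negative r with each of the 7 others, lowest with Ftl1 (-0.525). Over the 24 clusters Tfrc ran from 0 to 88.4 CPM. Its r with members and with its closest genes may thus follow from a few small clusters.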

How the data were processed

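Per the submitters' processing notes, STAR 2.7.10a and GRCm38 were used. The counting program, annotation, use of strand and whether counts are molecules or reads are not given in the sources used here. The authors deposited raw counts per gene and cell. From these, cells with under 500 counts or over 15% mitochondrial counts, the 6% with the highest scrublet score in each library, and 8 erythroid cells were left out. The latter choice, and leaving 14 library-specific genes out of the clustering, were made after seeing the data. Cells were clustered together with scanpy 1.11.5 (2000 variable genes, 30 components, Leiden resolution 1.0, mononuclear phagocytes at 0.5), without the members and list genes, and named from markers. Counts were summed per class and library as CPM (counts per 1000000), with exact 95% Poisson intervals. Ratios have exact conditional binomial intervals, and none is given at 0 or where both libraries held 3 counts or fewer. A gene was called past 1.5-fold, with no test. The members and lists were chosen with earlier results of these data known. Named list genes were those past 1.5-fold at 20 CPM or more, and the 2 most abundant per list. The scripts were tested on simulated data. Alternatives varied doublets, depth, resolution, scaling, weighting, thinning, makeup and background.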

Additional observations from a re-analysis of the deposited data

How the results depend on the processing

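No paired analysis was possible because each age has 1 library. The number of members highest in macrophage-like or monocyte-like cells was 7 under each alternative run, except 6 without the top 1% of cells, which removes every count of Slc40a1 in each class. Counts of members past 1.5-fold moved as follows, the cause being not tested. In macrophage-like cells thinning to 2000 counts gave 1 at 12 months and 2 at 20 months, and leaving out the top 1% of cells gave 0 at 20 months, which says nothing of stability since no Slc40a1 count is left. In monocyte-like cells at 12 months the count was 2 with doublets kept, with 5000 counts or more per cell, at resolutions 0.5 and 2.0, with libraries clustered separately and with the T-like level subtracted. There it was 3 with the mean of each cell's CPM and at the lower fold threshold tried, and 0 at a 2-fold threshold and with library-specific genes kept in the clustering, an alternative chosen after seeing the data. In monocyte-like cells at 20 months it was 1 at resolution 2.0, with libraries clustered separately, with the mean of each cell's CPM, with thinning and with the T-like level subtracted, and 2 at the lower threshold. At 1.5-fold the added calls in these 2 classes were of Tfrc and Slc40a1, the genes with fewest counts, except Hmox1 at 20 months in monocyte-like cells with libraries clustered separately (-0.64). In dendritic cell-like cells at 12 months it was 2 with thinning and with the T-like level subtracted and 3 at the lower threshold, and at 20 months 3 with libraries clustered separately (Fth1 -0.64, Slc11a1 0.87 and Cd68 -1.25, abundant genes among them) and 1 with the T-like level subtracted. In T-like cells it was 1 at the lower threshold at both ages, and at 20 months also with libraries clustered separately and with the mean of each cell's CPM. In NK-like cells it was 0 at both ages without the top 1% of cells, again by construction, and with thinning, and 2 at the lower threshold at 12 months. Over 16 alternatives the Hmox1 ratio in monocyte-like cells ran from -0.98 to -0.21 at 12 months and from -0.64 to 0.12 at 20 months, and in macrophage-like cells at 20 months from -0.27 (Pf4-led cells alone) to 0.32 (without the Mmp12-led cells). These last 2 alternatives, erythroid cells kept and unnamed clusters added to T-like cells were also chosen after seeing the data. The calls of Slc40a1 and Tfrc rest on the fewest counts, and the part of depth in their moves was not tested. The dendritic cell-like ratios also moved when each library was clustered separately.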
